A study of Mus musculus with 11 samples.

Results

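Messenger RNA was compared between 4 *mdx* mice treated with Pip6e-PMO and 4 untreated *mdx* mice, 8 of the 11 mice of the study, in the tibialis anterior (TA), a fast muscle of the front of the lower leg. The *mdx* mouse carries a stop codon in exon 23 of Dmd, so that most of its muscle fibres make no full-length dystrophin, and all mice were males of strain C57/B10, killed at 14 weeks of age. The treated mice, T1 to T4, had received one tail vein injection of Pip6e-PMO in saline at 12.5 mg/kg at 12 weeks, 2 weeks before death. The untreated *mdx* mice, M1 to M4, received nothing, so effects of the injection, of the peptide and of the exon skipping itself cannot be told apart here. The other 3 mice, C1 to C3, were dystrophin-positive C57 mice and serve only as reference levels. RNA came from sections of the middle of the muscle belly, and one Affymetrix Mouse Gene ST array was hybridised per mouse, on which many probes along a gene are summarised into one intensity. Of 21759 gene symbols on the array, 11695 were tested, those with a mean intensity of at least 30 in at least 1 of both *mdx* groups, each by its brightest probe set. Values below are log2 intensities unless stated otherwise, and a difference is the treated mean minus the *mdx* mean, with its standard error (SE). Levels of different genes on such arrays depend on their probes and are not set against each other.

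Dystrophin links the actin skeleton of the muscle fibre, through a complex of membrane proteins, to laminin outside the fibre. Without it the membrane tears during contraction, fibres die and are replaced by regeneration from satellite cells, and macrophages, fibroblasts and fat cells enter the tissue. A phosphorodiamidate morpholino oligonucleotide (PMO) is an uncharged antisense oligonucleotide that covers a splice site of the pre-mRNA, so that the exon is skipped and an in-frame, shortened dystrophin can be made. Pip6e is an arginine-rich cell-penetrating peptide joined to the PMO to bring it into muscle. The PMO of this study and the stretch of Dmd it pairs with, at the 3′ end of exon 23, are shown since every difference below was measured after this one sequence was given. The capitals mark the first 5 bases of the intron at the donor splice site and their complement. The oligonucleotide has 25 bases, of which 7 pair with the exon and 18 with the intron.
PMO: ggccaaacctcggCTTACctgaaat
Dmd target: atttcagGTAAGccgaggtttggcc

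The muscle identity of the samples was checked on genes of mature fibres. Ckm, the muscle creatine kinase, ranged from 13.20 to 13.23 in *mdx* and from 13.17 to 13.19 in treated mice, and the fast myosin heavy chain Myh4 from 12.34 to 12.52 and 12.27 to 12.44. None of the 15 tested genes of skeletal muscle identity was called. The median intensity per array over all probe sets was 27.86 to 28.64 in the 8 mice. The study names T2 as the treated mouse that responded least, so all results are given with it and without it. In the study T2 had the least exon skipping by quantitative PCR, the least dystrophin by mass spectrometry and the least restored mRNA on the arrays. Western blot values were not significantly correlated with those of the PCR or of mass spectrometry. Because T2 was singled out for its response, p-values without it are not independent of that choice, and the fit to all 8 mice is the main one.

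In all 8 mice, 746 genes passed an adjusted p of 0.05, 6.38% of those tested, of which 532 (4.55%) rose and 214 (1.83%) fell after treatment. Without T2, 3580 genes passed (30.6%), 2170 of them higher (18.6%) and 1410 lower (12.1%). All 746 genes were among the 3580, in the same direction. Counts of called genes in every list below are to be read against these shares of all genes tested. At the study's threshold, an unadjusted p under 0.01 with at least a 1.5-fold difference, 541 genes passed with all mice (4.63%), 381 higher and 160 lower, and 1108 without T2 (9.47%), 767 higher and 341 lower. The treated and *mdx* values did not overlap for 1819 genes with all mice (15.6%) and for 4682 without T2 (40.0%). The share of called genes that were higher depended on the scale. It was 71.3% with all mice as deposited, 44.1% with each array centred on its median (307 higher, 389 lower) and 55.9% after repeated quantile normalization (308 higher, 243 lower). Without T2 it was 60.6%, 42.9% (1619 higher, 2155 lower) and an even split (1813 in each direction). The median difference over all genes was 0.03 with all mice and 0.03 without T2.

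The number of calls with all mice depended on single mice. Leaving out M1 gave 417 called genes, M2 85, M3 7, M4 8, T1 30, T3 8 and T4 8. Of the 746 genes, 7 were called whichever of the 8 mice was left out, and they are named here because of that, after their values were seen. These were Tmem170b, which rose, and AY036118, ND6, Ifi27l2a, Cetn4, 1700055N04Rik and Clu, which fell. Without T2, 1356 of the 3580 calls held whichever further mouse was left out. T2 differed from its group in the same direction of most changes but less far. Over the 1108 genes past the study's threshold without it, the median position of T2 was 30.3% of the way from the *mdx* mean to the mean of T1, T3 and T4. With each of the others left out in turn, and set against the mean of the remaining treated mice, the position was 100% for T1, 95.1% for T3 and 117% for T4, over 384, 438 and 342 genes. Those means include T2, so these percentages are not measured like that of T2. Over the 3580 genes called without it, T2 stood at a median of 29.5% for the genes that rose and 13.3% for those that fell, and it lay on the far side of the *mdx* mean for 30.1% of them.

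Dmd itself was not called. Its level in *mdx* mice M1 to M4 was 5.82, 5.36, 5.33 and 4.60, in T1 to T4 6.34, 5.51, 5.68 and 5.68 and in C57 mice 5.77 to 5.87. The treated mice lay within or above the *mdx* range, and M4 was the lowest of all. The difference was 0.53 ± 0.25 (SE, adjusted p = 0.186) with all mice and 0.62 ± 0.27 (SE, adjusted p = 0.104) without T2. With single mice of the 8 left out it ran from 0.30 to 0.71, and Dmd was called in none of these fits. The probe set averages probes along the gene and does not tell transcripts with exon 23 from those without it.

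Among the 21 tested genes of the dystrophin-associated complex, 1 rose with all mice, or none on either other scale, and without T2 10 rose and 2 fell, with a median difference of 0.36. The 1 was Sntb2, which codes for β2-syntrophin, an adaptor bound to dystrophin and utrophin. Sntb2 measured 7.46, 7.34, 7.45 and 7.37 in M1 to M4 and 7.77, 8.05, 7.83 and 7.72 in T1 to T4, against 6.89 to 7.02 in C57 mice. All treated mice lay above all *mdx* mice, T2 highest, and the difference was 0.44 ± 0.10 (SE, adjusted p = 0.0364). Utrn codes for utrophin, the homologue of dystrophin that can take its place at the membrane, and measured 6.47, 6.39, 6.73 and 6.42 in *mdx* and 7.40, 6.66, 6.86 and 7.14 in treated mice. T1, T3 and T4 were above every *mdx* mouse and T2 was not, with a difference of 0.51 ± 0.16 (SE, adjusted p = 0.0688) with all mice and 0.63 ± 0.14 (SE, adjusted p = 0.012) without T2. Without T2 the δ- and β-sarcoglycan genes Sgcd and Sgcb rose by 0.60 and 0.54, the α-dystrobrevin gene Dtna by 0.53 and the neuronal nitric oxide synthase Nos1, which syntrophin anchors, by 0.46. Among those that fell was Cav3, the caveolin of muscle membranes, at -0.59 ± 0.13 (SE, adjusted p = 0.0114). The dystroglycan gene Dag1 differed by 0.10 ± 0.11 (SE, adjusted p = 0.567) and the laminin α2 gene Lama2 by 0.30 ± 0.13 (SE, adjusted p = 0.152), and neither was called with or without T2.

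The 15 largest rises among called genes with no overlap between the groups ran from 0.97 to 1.45. The largest was Myh2, the myosin heavy chain of IIA fibres, which measured 8.66, 7.85, 8.71 and 7.79 in M1 to M4, 10.44, 9.13, 9.49 and 9.76 in T1 to T4 and 8.98 to 9.63 in C57 mice. Its *mdx* values were the lowest of the 3 groups, and the difference was 1.45 ± 0.29 (SE, adjusted p = 0.0304). Csrp3, the muscle LIM protein of the Z-disc, was at 7.15, 7.57, 6.93 and 8.26 in *mdx* and 8.71, 8.42, 8.84 and 9.13 in treated mice, while C57 mice had 6.65 to 7.20. M4 was nearest to the treated mice, and the difference was 1.30 ± 0.26 (SE, adjusted p = 0.0302). The integrin α1 gene Itga1, a collagen receptor subunit, came next, with 6.39, 6.11, 6.06 and 5.74 in *mdx* mice and 7.34, 6.74, 7.35 and 7.25 in treated mice. T2 was the lowest treated mouse, still above all *mdx* mice, at a difference of 1.09 ± 0.17 (SE, adjusted p = 0.0227).

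Among the other 12 are genes known from blood vessels, of which Tek and Rgs5 belong to the marker lists of endothelium and pericytes. Sdpr (Cavin2), a coat protein of caveolae, rose by 1.08 ± 0.14 (SE, adjusted p = 0.0148), Tek, the angiopoietin receptor of endothelium, by 0.97 ± 0.25 (SE, adjusted p = 0.0487), Calcrl, the receptor for adrenomedullin and calcitonin gene-related peptide, by 1.0 ± 0.20 (SE, adjusted p = 0.0307), and Rgs5, a marker of pericytes, by 1.01 ± 0.21 (SE, adjusted p = 0.0323). Gucy1b3 (Gucy1b1), a subunit of the nitric oxide receptor guanylyl cyclase, rose by 1.03 ± 0.21 (SE, adjusted p = 0.0307) and the fatty acid transporter Cd36 by 0.98 ± 0.26 (SE, adjusted p = 0.0499). The others were Cyyr1 at 1.03, the flavin monooxygenase Fmo2 at 0.99, the Y-chromosomal RNA helicase Ddx3y at 0.99, the importin-related Ranbp6 at 0.97, the microRNA gene Mir30e at 0.97 and Gm9938 at 1.07. The *mdx* means of Gucy1b3, Mir30e and Ranbp6 lay below log2 4.91, the intensity of 30, where array background limits the size of a difference. The same limit holds for the *mdx* means of Gbp3 and Tubgcp5 and the treated means of Csf3r and Plk1, and without T2 for the treated means of Adipoq, Plin1 and Chrng, all named below. Leaving out T2 brought Rasgrp3, Rnf125 and Eltd1 (Adgrl4), an adhesion receptor of endothelium, into the 10 largest rises at 1.26, 1.19 and 1.17. Tmem170b, the rise called whichever mouse was left out, measured 7.56, 7.67, 7.68 and 7.62 in *mdx*, 8.50, 8.46, 8.39 and 8.51 in treated and 7.96 to 8.22 in C57 mice. The *mdx* mice were the low group and the treated mice were above C57, with a difference of 0.83 ± 0.08 (SE, adjusted p = 0.00384).

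The largest fall by far was that of ND6, a subunit of respiratory complex I encoded by mitochondrial DNA. ND6 measured 9.03, 8.42, 8.60 and 8.86 in M1 to M4, 3.88, 5.11, 4.89 and 5.02 in T1 to T4 and 4.13 to 4.66 in C57 mice. The *mdx* mice alone were high, and the treated mean lay below log2 4.91, so background limits the difference of -4.0 ± 0.25 (SE, adjusted p = 7.33e-05). None of the other 9 tested genes named for proteins of mitochondrial DNA was called, while LOC100503984, placed on chromosome M from 6870 to 6938 in the deposited table, was called and is given below. AY036118, a transcript named only by its accession in the deposited table, measured 10.37, 10.23, 10.20 and 10.46 in *mdx*, 8.36, 8.55, 8.35 and 8.19 in treated and 8.69 to 8.90 in C57 mice. Again the *mdx* mice alone were high, at a difference of -1.95 ± 0.11 (SE, adjusted p = 3.47e-05). Ifi27l2a, an interferon-inducible gene, was 7.97, 8.24, 8.08 and 8.41 in *mdx* and 6.19, 7.04, 6.54 and 6.48 in treated mice, and 7.15 to 7.40 in C57 mice. The treated mice lay below both other groups, T1 lowest, at a difference of -1.61 ± 0.17 (SE, adjusted p = 0.00484).

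Other large falls included secreted proteins of the acute phase. Serpina3n, a secreted inhibitor of serine proteases, measured 9.48, 10.44, 9.40 and 10.75 in *mdx* and 7.80, 9.31, 8.22 and 8.23 in treated mice, and C57 mice had 7.02 to 7.82. T2 lay just under the lowest *mdx* mouse while T1, T3 and T4 were nearer to C57, with a difference of -1.63 ± 0.36 (SE, adjusted p = 0.0364). Lcn2, lipocalin 2, which binds bacterial iron carriers, was 6.21, 7.46, 6.58 and 8.39 in *mdx* and 5.28, 5.73, 5.79 and 5.57 in treated mice. M2 and M4 were the high ones, and the difference was -1.57 ± 0.39 (SE, adjusted p = 0.0448). The haptoglobin gene Hp was at 6.39, 7.83, 7.51 and 8.04 in *mdx* and 4.66, 6.48, 4.81 and 4.02 in treated mice. T2 overlapped the *mdx* range through M1, and the difference was -2.45 ± 0.49 (SE, adjusted p = 0.0302) with all mice and -2.95 ± 0.36 (SE, adjusted p = 0.00354) without T2, limited by a mean of T1, T3 and T4 below log2 4.91. Socs3, the feedback inhibitor of cytokine signalling through STAT3, was 7.10, 6.34, 7.95 and 7.43 in *mdx*, 5.96, 5.82, 5.83 and 5.82 in treated and 5.34 to 5.98 in C57 mice. All treated mice were within the C57 range, at a difference of -1.35 ± 0.27 (SE, adjusted p = 0.0297). The rest of the 15 were Retnlg at -1.74, lubricin (Prg4) at -1.32, complement C4b at -1.32, Apoc1 at -1.25, galectin 3 (Lgals3) at -1.20, the chemokine Ccl6 at -1.18, LOC100503984 at -1.17, the tartrate-resistant phosphatase Acp5 at -1.12 and the small nucleolar RNA Snora75 at -1.08. The treated means of Retnlg and Apoc1 lay below log2 4.91, and the probe set of LOC100503984 is annotated as able to bind other genes.

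**Figure D1:**
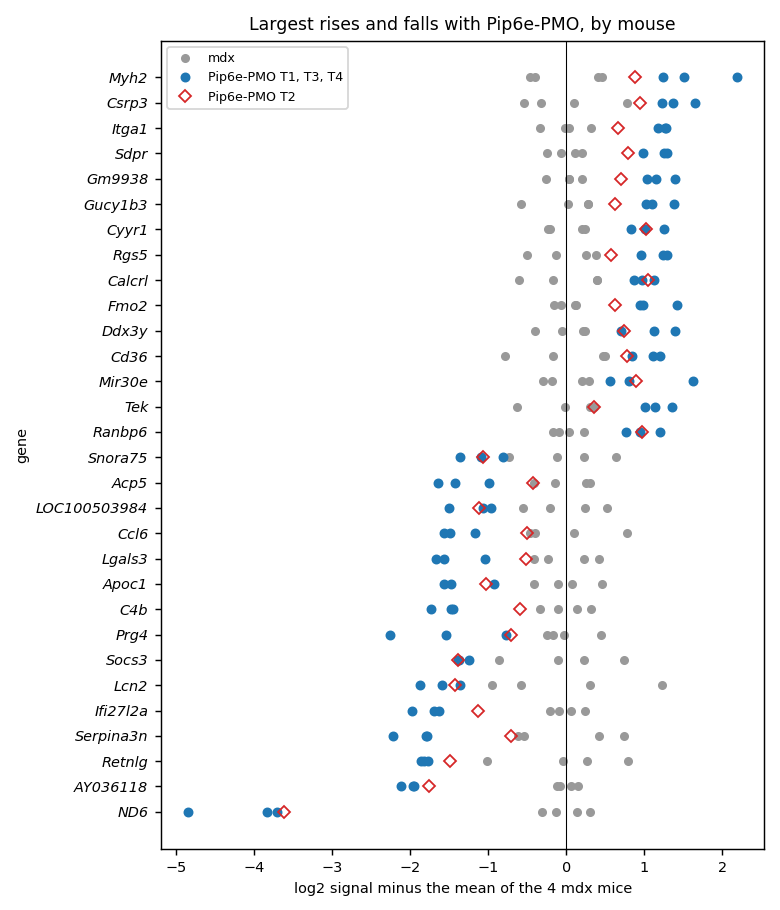
Log2 intensity of each mouse minus the *mdx* mean (horizontal axis) for the 15 largest rises and 15 largest falls among called genes whose groups do not overlap, for *mdx* (M1 to M4) and treated mice, T2 drawn as a red open diamond. ND6 stands apart with a difference of -4.0, and T2 is often the treated mouse nearest to *mdx*, as for Tek and Serpina3n.

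Of the 7 genes called whichever mouse was left out, the remaining 3 had small spreads. Clu, clusterin, a secreted chaperone that restrains complement, measured 8.61, 8.89, 8.92 and 8.92 in *mdx*, 8.02, 7.84, 7.96 and 7.91 in treated and 8.62 to 8.98 in C57 mice. Every treated mouse, T2 included, was below both other groups, at a difference of -0.90 ± 0.10 (SE, adjusted p = 0.00624). Cetn4, a centrin of cilia, was 5.19, 5.55, 5.56 and 5.45 in *mdx* and 4.42, 4.53, 4.26 and 4.54 in treated mice, a difference of -1.0 ± 0.11 (SE, adjusted p = 0.00624), all treated values being below log2 4.91. The gene listed as 1700055N04Rik (Aldh3b3) was 7.56, 7.61, 7.67 and 7.61 in *mdx* and 6.71, 6.86, 6.80 and 6.79 in treated mice, a difference of -0.82 ± 0.08 (SE, adjusted p = 0.00384). T2 lay with the other treated mice for all 3 genes.

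Genes of antigen presentation on MHC class II, the pathway by which macrophages, dendritic cells and B cells show peptides to helper T cells, were lower after treatment. Of 10 tested, none rose, 3 fell with all mice and 8 fell without T2, with a median difference of -0.55 and -0.67. The falls with all mice were 4 with centred arrays and 2 after quantile normalization. Of all genes tested, 1.83% fell with all mice and 12.1% without T2. In whole muscle, fewer cells of a type and less RNA per cell cannot be told apart, here and for every cell type below. H2-Aa, the α chain of I-A, measured 11.01, 11.23, 10.97 and 11.02 in M1 to M4, 10.10, 10.90, 10.38 and 9.96 in T1 to T4 and 9.40 to 9.83 in C57 mice. The treated mice lay between the other groups, with T2 just below the *mdx* mice, at a difference of -0.72 ± 0.18 (SE, adjusted p = 0.0461) with all mice and -0.91 ± 0.12 (SE, adjusted p = 0.00354) without T2. The invariant chain Cd74, which guides class II molecules to the endosome, was 10.48, 10.81, 10.67 and 10.70 in *mdx* and 10.09, 10.44, 10.09 and 9.88 in treated mice, a difference of -0.54 ± 0.13 (SE, adjusted p = 0.0414). The thiol reductase Ifi30, which unfolds antigens, fell by -0.65 with all mice. Without T2 the β chains H2-Ab1 and H2-Eb1 fell by -0.75 and -0.82, the peptide exchange factor H2-DMa by -0.85 and cathepsin S (Ctss), which trims the invariant chain, by -0.39. Ciita, the coactivator that switches these genes on, differed by -0.10 ± 0.14 (SE, adjusted p = 0.69) and -0.20 ± 0.13 (SE, adjusted p = 0.235) and was not called.

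The class II genes share a promoter module to which constitutive factors bind and recruit Ciita, and part of it is the Y-box, an inverted CCAAT box. The letters TGATTGG, a form of the Y-box, were searched on both strands in the 250 bases before each gene's start and stood in 2375 of 32851 promoters (7.23%). A pair of the falling genes are shown because both hold the letters near the start, in capitals, 50 bases before it in H2-Aa (chr17:34287824-34287943, minus strand) and 61 bases before it in H2-Eb1 (chr17:34305747-34305866, plus strand). The sequences are from RefSeq, assembly GRCm38.p6, and end at the base before the gene's start. Those of H2-DMa and Ifi30, which fell as well, have no match in the same window. Other falling class II genes, Cd74 and H2-Ab1 among them, were not looked up, so their share with the letters is not known. Whether the letters have a part in the falls was not tested.
H2-Aa promoter: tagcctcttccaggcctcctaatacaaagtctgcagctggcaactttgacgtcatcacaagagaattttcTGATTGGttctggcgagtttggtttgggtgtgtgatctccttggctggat
H2-Eb1 promoter: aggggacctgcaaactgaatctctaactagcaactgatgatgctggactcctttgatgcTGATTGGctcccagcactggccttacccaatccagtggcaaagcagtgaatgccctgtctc

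MHC class I presentation, which shows peptides from within the cell to cytotoxic T cells, moved the same way by less. Of 15 tested genes, 5 fell and none rose with all mice, and 11 fell and 1 rose without T2, at a median of -0.42. With all mice the falls were 8 with centred arrays and 3 after quantile normalization. The class I heavy chain H2-D1 measured 10.29, 10.35, 10.16 and 10.19 in *mdx* and 9.76, 10.08, 9.79 and 9.63 in treated mice. T2 was closest to the *mdx* mice and T1, T3 and T4 were lower, at a difference of -0.43 ± 0.11 (SE, adjusted p = 0.0487). The immunoproteasome subunit Psmb8 fell by -0.46, the proteasome activator Psme2 by -0.42, H2-T23 by -0.41 and H2-Q7 by -0.41 with all mice. Class I genes are near copies of each other, and their probes may read more than one. Without T2 the one that rose was the peptidase Erap1.

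Of 18 tested complement genes 8 fell with all mice, and none rose, with and without T2. The share of all genes that fell was 1.83% with all mice and 12.1% without T2. Complement is the cascade of plasma proteins that tags cells and debris for uptake. C4b measured 6.99, 7.64, 7.47 and 7.22 in *mdx*, 5.85, 6.73, 5.59 and 5.88 in treated and 6.32 to 6.65 in C57 mice. T1, T3 and T4 lay below C57 mice, and T2 between C57 and *mdx*, at a difference of -1.32 ± 0.23 (SE, adjusted p = 0.0261). The chains C1qb and C1qc of the recognition protein, which macrophages make, fell by -1.07 ± 0.19 (SE, adjusted p = 0.0261) and -0.98 ± 0.24 (SE, adjusted p = 0.0421). Factor D (Cfd), a protease that fat cells secrete, fell by -1.94. Without T2 the list had 10 falls of 18, and C1qa was among them at -1.06 ± 0.14 (SE, adjusted p = 0.00359). The central component C3 at -0.42 ± 0.16 (SE, adjusted p = 0.112) and the inhibitor Serping1 at -0.29 ± 0.11 (SE, adjusted p = 0.106) were not called with or without T2.

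Macrophage markers had mostly negative differences, 13 of 16 with all mice and 14 without T2, but fewer were called. Falls made up 1.83% of all genes with all mice and 12.1% without T2. Of 16 macrophage markers tested, 2 fell and none rose with all mice, and without T2 6 fell and 1 rose, at a median of -0.41. Their summed intensity was 1370 to 1969 in C57, 3585 to 5784 in *mdx*, 2822 to 3185 in T1, T3 and T4 and 3813 in T2, and Cd163, Msr1, Clec7a and Cd84 were below the minimum. The endosomal glycoprotein Cd68 measured 9.16, 9.88, 9.13 and 9.97 in *mdx*, 8.11, 9.15, 8.26 and 8.48 in treated and 7.30 to 7.53 in C57 mice. T2 overlapped the *mdx* mice, at a difference of -1.03 ± 0.26 (SE, adjusted p = 0.045) with all mice and -1.25 ± 0.22 (SE, adjusted p = 0.00658) without T2. Galectin 3 fell by -1.20 ± 0.26 (SE, adjusted p = 0.0349), and without T2 the lipid receptor Trem2 fell by -1.25 and the folate receptor Folr2 by -0.73. The mannose receptor Mrc1 went the other way, at 0.49 ± 0.14 (SE, adjusted p = 0.06) with all mice and 0.49 ± 0.15 (SE, adjusted p = 0.0387) without T2. Markers of the lineage as a whole were not called, with F4/80 (Emr1, Adgre1) at -0.37 ± 0.19 (SE, adjusted p = 0.169), the CSF1 receptor Csf1r at -0.52 ± 0.18 (SE, adjusted p = 0.0525) and lysozyme (Lyz2) at -0.35 ± 0.13 (SE, adjusted p = 0.0686) without T2.

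Some signalling genes of myeloid cells fell too. The adaptors Tyrobp and Fcer1g, through which Fc and Trem receptors signal, fell by -1.12 ± 0.27 (SE, adjusted p = 0.0417) and -1.05 ± 0.25 (SE, adjusted p = 0.0408). In all, 3 of 15 genes of Fc receptors and innate signalling fell with all mice and 7 without T2, when the kinase Lyn alone rose. Across all genes, 1.83% fell with all mice and 12.1% without T2. Of 19 genes shared by leukocytes, the GTPase Rac2 fell with all mice, from 7.25 to 7.76 in *mdx* to 6.20 to 6.94 in treated mice, and without T2 7 fell and none rose. Their summed intensity was 2609 to 3735 in *mdx*, 2165 to 2383 in T1, T3 and T4 and 2963 in T2. Ptprc, the leukocyte antigen CD45, was 5.33, 5.31, 5.38 and 5.36 in *mdx* and 5.36, 5.70, 5.16 and 5.35 in treated mice and did not pass, at 0.05 ± 0.12 (SE, adjusted p = 0.813). Of 19 lymphocyte markers on the array only 2 were above the minimum, and Cd3e, Cd4 and Cd8a were not. Nkg7, a granule protein of cytotoxic cells, fell without T2 by -1.25 ± 0.22 (SE, adjusted p = 0.0063). S100a8, S100a9 and Ly6g of neutrophils were below the minimum, and of 5 tested neutrophil and mast cell markers, Retnlg and the receptor Csf3r fell with all mice, and without T2 the same 2 genes fell and Kit rose.

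Among 21 chemokines and their receptors, 5 fell with all mice, 10 fell without T2 and none rose. These counts stand beside falls in 1.83% of all genes with all mice and 12.1% without T2. Ccl8, a monocyte attractant, was 6.68, 7.19, 6.47 and 7.45 in *mdx*, 5.09, 6.68, 5.57 and 5.27 in treated and 4.05 to 4.86 in C57 mice. T2 was level with the lower *mdx* mice, at a difference of -1.29 ± 0.33 (SE, adjusted p = 0.0474). Ccl5, which attracts T cells, fell by -1.02 ± 0.23 (SE, adjusted p = 0.0371) and Ccl17 by -1.0 ± 0.24 (SE, adjusted p = 0.0442). Ccl21a, a chemokine of lymphatic vessels, had a large fall without T2, -2.04 ± 0.57 (SE, adjusted p = 0.027), that T4 led with a level of 6.49 against 9.92 to 10.63 in *mdx* mice, and its probe set is annotated as able to bind other genes. Lysosomal genes gave 2 falls of 27 with all mice, Acp5 and cathepsin Z (Ctsz, -0.43), and 9 falls with 2 rises without T2, or 5 falls with all mice and 13 with no rise without T2 on centred arrays. The lysosomal membrane protein Lamp2 was one of those that rose, by 0.65.

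**Figure D2:**
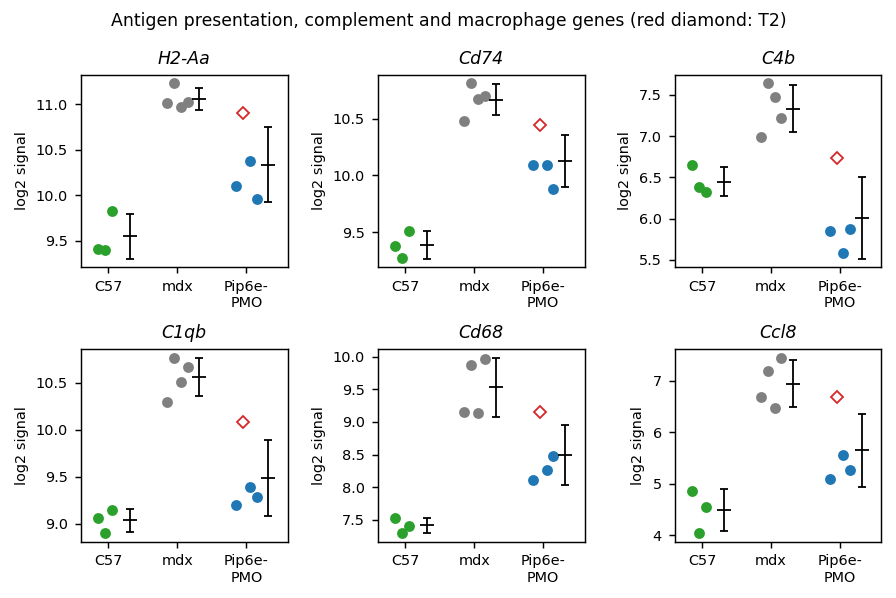
Log2 intensity of H2-Aa, Cd74, C4b, C1qb, Cd68 and Ccl8 in each C57, *mdx* and treated mouse, with bars for the group mean ± SD (n = 3, 4 and 4) and T2 as a red open diamond. T1, T3 and T4 lie below all *mdx* mice in each panel, and T2 lies nearer to *mdx*, for example at 6.68 for Ccl8.

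Interferon response genes did not move one way. Of 22 tested, 2 fell with all mice, Bst2 (tetherin) by -0.69 ± 0.14 (SE, adjusted p = 0.0317) and Ifitm1 by -0.63 ± 0.16 (SE, adjusted p = 0.0467). Without T2 3 fell and 4 rose, or 5 and 3 on either other scale, and the median was 0.01, or -0.06 with arrays centred on their medians. Among those that rose were Gbp2 at 0.62, Gbp3 and Irgm1. Among 56 interleukins, TNF family members and their receptors, 2 fell with all mice, Csf3r and Csf2rb2, or 4 on either other scale, and without T2 13 fell and 6 rose, or 18 and 3 with centred arrays and 21 and 5 after quantile normalization. The TWEAK receptor Tnfrsf12a of injured muscle was 8.93, 9.37, 8.98 and 9.59 in *mdx* and 7.91, 9.21, 8.19 and 8.69 in treated mice. T2 was within the *mdx* range, and Tnfrsf12a fell without it, by -0.95 ± 0.21 (SE, adjusted p = 0.0121). The apoptosis ligand Tnfsf10 rose without T2 by 0.86. Of 11 serpins, Serpina3n fell with all mice, and Serpinf1 and the collagen chaperone Serpinh1 joined it without T2.

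With all mice none of 29 collagen genes was called, and without T2 3 fell, Col6a1 by -0.46 ± 0.12 (SE, adjusted p = 0.019), Col6a2 by -0.47 ± 0.12 (SE, adjusted p = 0.0212) and Col27a1 by -0.26 ± 0.08 (SE, adjusted p = 0.0446). The falls without T2 were 8 with centred arrays and 5 after quantile normalization. On the deposited scale without T2, 10.3% of the collagen genes fell, near the 12.1% of all genes. The fibrillar Col1a1 measured 11.07, 11.10, 11.28 and 11.14 in *mdx* and 10.55, 11.87, 11.12 and 11.06 in treated mice. T2 was the highest and T1 the lowest of all 8, at a difference of 0.00 ± 0.22 (SE, adjusted p = 0.995) with all mice and -0.24 ± 0.14 (SE, adjusted p = 0.215) without T2. Of 27 small proteoglycans and matricellular proteins, none was called with all mice and 5 fell without T2, or 9 with centred arrays. Osteopontin (Spp1), a cytokine of damaged muscle, was 6.12, 5.89, 6.47 and 6.24 in *mdx* and 4.79, 5.59, 4.61 and 5.86 in treated mice, without overlap, at -0.97 ± 0.26 (SE, adjusted p = 0.0516) with all mice and -1.09 ± 0.27 (SE, adjusted p = 0.0183) without T2. Biglycan (Bgn) and fibronectin (Fn1) fell without T2 by -0.52 and -0.45. Periostin (Postn), which spread over 6.03 to 8.37 in *mdx* mice, was not called. Of 25 genes of crosslinking and elastic fibres, fibulin 1 (Fbln1) fell with all mice by -0.86 ± 0.21 (SE, adjusted p = 0.0429), and 11 fell and 2 rose without T2.

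Timp1, an inhibitor of metalloproteinases that inflamed tissue makes, was among the large falls of the matrix genes. It measured 9.06, 8.96, 8.61 and 10.23 in *mdx*, 7.02, 8.66, 7.70 and 7.34 in treated and 5.19 to 6.0 in C57 mice. T2 lay within the lower *mdx* values, at a difference of -1.53 ± 0.39 (SE, adjusted p = 0.0467) with all mice and -1.86 ± 0.34 (SE, adjusted p = 0.00687) without T2. Stromelysin 1 (Mmp3) fell by -0.90 ± 0.20 (SE, adjusted p = 0.036), while the membrane protease Adam10 and the secreted protease Adamts12 rose by 0.64 ± 0.11 (SE, adjusted p = 0.0261) and 0.82 ± 0.14 (SE, adjusted p = 0.0261). In all, 2 of 40 genes of this family rose and 2 fell with all mice, and 6 rose and 8 fell without T2, or 5 and 12 with centred arrays.

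A few cell surface receptors for the matrix and for TGF-β rose. Of 25 integrin genes, 4 rose and none fell with all mice, Itga1, Itga6 by 0.76 ± 0.16 (SE, adjusted p = 0.0331), Itga8 by 0.79 ± 0.16 (SE, adjusted p = 0.0304) and Itgb1, the common β1 partner, by 0.58 ± 0.15 (SE, adjusted p = 0.049). Without T2 6 rose and 2 fell, or 6 and 6 with arrays centred on their medians, and the median of the list was negative at -0.17. The *mdx* mean of Itga8 was below log2 4.91. In the TGF-β and BMP pathway, 3 of 36 genes rose with all mice, all receptors, Tgfbr1 by 0.58 ± 0.14 (SE, adjusted p = 0.0416), Bmpr2 by 0.59 ± 0.14 (SE, adjusted p = 0.0408) and Acvr2a by 0.65 ± 0.13 (SE, adjusted p = 0.0297). The rises and falls were 2 and 2 with centred arrays and 2 and 1 after quantile normalization. Without T2 the ligand Tgfb1 fell by -0.56 ± 0.11 (SE, adjusted p = 0.00779). The BMP targets Id1 and Id3 fell without T2 by -1.08 and -0.79. In all, 7 genes of this pathway rose and 6 fell without T2, or 5 and 7 with centred arrays. Over all genes 4.55% rose with all mice, and 18.6% rose and 12.1% fell without T2. The pathway as a whole did not shift, with a median of 0.025 with all mice and -0.005 without T2. Without T2, 18 of its 36 differences were positive.

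Fibro-adipogenic progenitors, the stromal cells that give rise to scar and fat in muscle, had 2 falling markers of 18 with all mice, Ly6a (Sca-1) by -0.58 ± 0.13 (SE, adjusted p = 0.034) and vimentin by -0.40 ± 0.10 (SE, adjusted p = 0.0494). Without T2 5 fell and Pdgfra, the receptor by which these cells are defined, rose by 0.62 ± 0.15 (SE, adjusted p = 0.0168). Their summed intensity was 12996 to 14847 in *mdx*, 10403 to 11638 in T1, T3 and T4 and 13214 in T2. Of 11 tendon markers none was called with all mice, and Scx fell without T2 by -0.64.

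Adipocyte genes included several of the largest falls, and M1 stood apart from the other *mdx* mice in them. Adiponectin (Adipoq) measured 5.64, 6.96, 6.69 and 6.95 in M1 to M4, 4.95, 5.78, 4.24 and 4.72 in T1 to T4 and 5.89 to 6.85 in C57 mice. M1 lay below T2, and the difference was -1.64 ± 0.35 (SE, adjusted p = 0.034). The lipid droplet coat protein perilipin 1 (Plin1) was 5.69, 7.24, 6.89 and 6.92 in *mdx* and 5.30, 6.03, 4.27 and 4.90 in treated mice, the droplet protein Cidec 5.64, 7.05, 6.95 and 7.24 and 5.16, 6.10, 4.88 and 5.22, and resistin (Retn) 6.53, 8.17, 7.86 and 8.04 and 6.01, 7.04, 5.26 and 5.70. M1 was the lowest *mdx* mouse for each of these, and T2 the highest treated mouse. They fell by -1.56, -1.38 and -1.65 with all mice. Of 19 markers, 7 fell and 1 rose with all mice and 9 fell and 3 rose without T2. Those that rose without T2, Lpl, Fabp4 and Plin4, are made by capillaries or muscle fibres as well. The master regulator Pparg was 5.70, 5.78, 5.69 and 5.60 in *mdx* and 5.78, 5.85, 5.80 and 5.80 in treated mice, and it was not called. The summed intensity of the list, to which Car3 and Pnpla2, both made by muscle fibres too, give the most, ran from 12233 to 12937 in treated mice and from 11727 to 13637 in *mdx*. Whether the amount of fat in each block of tissue differed was not tested. Neuronatin (Nnat), another gene of fat and of developing tissue, fell without T2 by -2.14 ± 0.48 (SE, adjusted p = 0.0133), with T1, T3 and T4 all below log2 4.91, so that background limits the size.

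The endothelial markers that were called rose. Of 17 tested, 3 rose with all mice and 4 without T2, and none fell, with a median of 0.17 without T2. These are 17.6% and 23.5% of the list, against 4.55% and 18.6% of all genes called higher. On either other scale 2 rose with all mice and 4 without T2, and the median without T2 was 0.098 with centred arrays. Erg, a transcription factor of endothelium, measured 6.50, 6.29, 6.18 and 6.24 in *mdx*, 7.31, 6.92, 7.40 and 7.22 in treated and 6.34 to 6.46 in C57 mice. The treated mice alone were high, at a difference of 0.91 ± 0.12 (SE, adjusted p = 0.0159). The junction protein Pecam1 was 8.11, 8.10, 7.70 and 7.71 in *mdx* and 8.91, 8.24, 8.78 and 8.81 in treated mice, with T2 barely above *mdx*, at a difference of 0.78 ± 0.16 (SE, adjusted p = 0.0329). Tek was given above, and the VEGF receptor Kdr rose without T2 by 0.65 ± 0.16 (SE, adjusted p = 0.0166). VE-cadherin (Cdh5), as specific to these cells as the others, was 10.24, 10.15, 10.02 and 9.95 in *mdx* and 10.47, 9.82, 10.24 and 10.27 in treated mice and did not pass, at 0.24 ± 0.10 (SE, adjusted p = 0.107) without T2. The summed intensity of the list ran from 7629 to 8111 in treated mice, above the 6613 to 7455 of *mdx* mice, while C57 mice had 6282 to 6703. Of 13 markers of smooth muscle and pericytes, Rgs5 rose with all mice, and Myh11, Abcc9 and Kcnj8 rose as well without T2. Smooth muscle actin Acta2 was at -0.15 ± 0.10 (SE, adjusted p = 0.31). None of 7 blood cell markers was called, and of 10 Schwann cell genes Egr2 and Cnp fell without T2, while the myelin gene Mbp, at -0.22 ± 0.13 (SE, adjusted p = 0.21), did not pass.

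For several genes of newly formed fibres T2 lay among the *mdx* mice, but T2 stood near *mdx* for called genes in general. Over the 11 genes of regenerating fibres called without T2, its median position was 17.5% of the way from *mdx* to T1, T3 and T4. It was 23.7% over all 3580 genes called without T2 and 13.3% over those that fell. Myogenin (Myog), the transcription factor of differentiating myoblasts, measured 6.76, 6.34, 7.22 and 6.74 in M1 to M4, 5.08, 7.0, 5.22 and 4.97 in T1 to T4 and 4.61 to 5.56 in C57 mice. T1, T3 and T4 were in the range of C57 mice and T2 was among the *mdx* mice. The difference was -1.20 ± 0.40 (SE, adjusted p = 0.0835) with all mice and -1.68 ± 0.18 (SE, adjusted p = 0.00325) without T2. Myomaker (Tmem8c, Mymk), the membrane protein by which myoblasts fuse, was 8.56, 8.41, 9.27 and 7.75 in *mdx* and 6.89, 8.59, 6.91 and 6.04 in treated mice, and the fetal acetylcholine receptor subunit Chrng 6.50, 6.23, 7.15 and 5.80 and 5.03, 6.59, 5.08 and 4.21. Both had T2 within the *mdx* range, and without it they fell by -1.88 ± 0.33 (SE, adjusted p = 0.00658) and -1.65 ± 0.31 (SE, adjusted p = 0.00761). The embryonic light chain Myl4 fell with all mice by -0.88 ± 0.23 (SE, adjusted p = 0.0494). Embryonic myosin Myh3 fell without T2 by -1.09 ± 0.34 (SE, adjusted p = 0.0387), and perinatal myosin Myh8 was at -0.09 ± 0.15 (SE, adjusted p = 0.679). Of 21 genes of regenerating fibres, 1 fell and 2 rose with all mice, and 9 fell and 2 rose without T2. The 2 that rose, Csrp3 and Ankrd2, are stretch-response genes that mature slow fibres express too.

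Satellite cell markers did not follow. Pax7 was 6.21, 6.31, 6.46 and 6.46 in *mdx* and 6.25, 6.34, 6.28 and 6.09 in treated mice and Myod1 differed by -0.54 ± 0.22 (SE, adjusted p = 0.0904) without T2, neither of them called. Of 25 myogenic regulators, Met, the hepatocyte growth factor receptor of satellite cells, rose with all mice by 0.61 ± 0.13 (SE, adjusted p = 0.0359), and without T2 6 rose and 4 fell, or 4 and 5 with centred arrays. Of 21 genes of the neuromuscular junction and of denervation, none was called with all mice. Without T2 6 fell, among them Myog, Chrng, the adhesion molecule Ncam1 by -0.69 and the receptor subunit Chrna1 by -0.65, and 2 rose, Musk and Lrp4, which form the agrin receptor. Runx1, which denervated fibres express, was at -0.29 ± 0.11 (SE, adjusted p = 0.0753).

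Slow-fibre genes went both ways. The slow troponin I gene Tnni1 was 9.15, 9.45, 10.30 and 8.30 in *mdx*, 7.44, 9.25, 7.26 and 6.40 in treated and 6.61 to 6.94 in C57 mice. T2 was as high as the *mdx* mice, and the difference was -1.71 ± 0.56 (SE, adjusted p = 0.0801) with all mice and -2.27 ± 0.42 (SE, adjusted p = 0.00708) without T2. Slow troponin C (Tnnc1) fell without T2 by -1.60 ± 0.43 (SE, adjusted p = 0.0229) and slow troponin T (Tnnt1) by -0.85 ± 0.24 (SE, adjusted p = 0.0285). The slow light chain Myl3 instead measured 7.83, 7.92, 8.38 and 7.63 in *mdx*, 8.99, 8.80, 8.39 and 8.80 in treated and 9.12 to 9.87 in C57 mice. The treated mice lay between *mdx* and C57, and Myl3 rose by 0.81 ± 0.17 (SE, adjusted p = 0.034). Myl2 fell by -0.75 ± 0.18 (SE, adjusted p = 0.0417), at levels of 3.90 to 4.62 in treated mice that lie below log2 4.91. Of 16 slow genes, 3 rose and 1 fell with all mice and 4 rose and 4 fell without T2. Of 18 fast genes, Myh2 alone was called with all mice, and Myom2 rose as well without T2, by 0.26. The fast myosins Myh1 and Myh4 were at 0.15 ± 0.12 (SE, adjusted p = 0.425) and -0.04 ± 0.09 (SE, adjusted p = 0.792). Of 25 genes of calcium handling none was called with all mice, and Calm2, Itpr1, Jph1 and Asph rose without T2, with 4 rises and 4 falls on centred arrays.

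**Figure D3:**
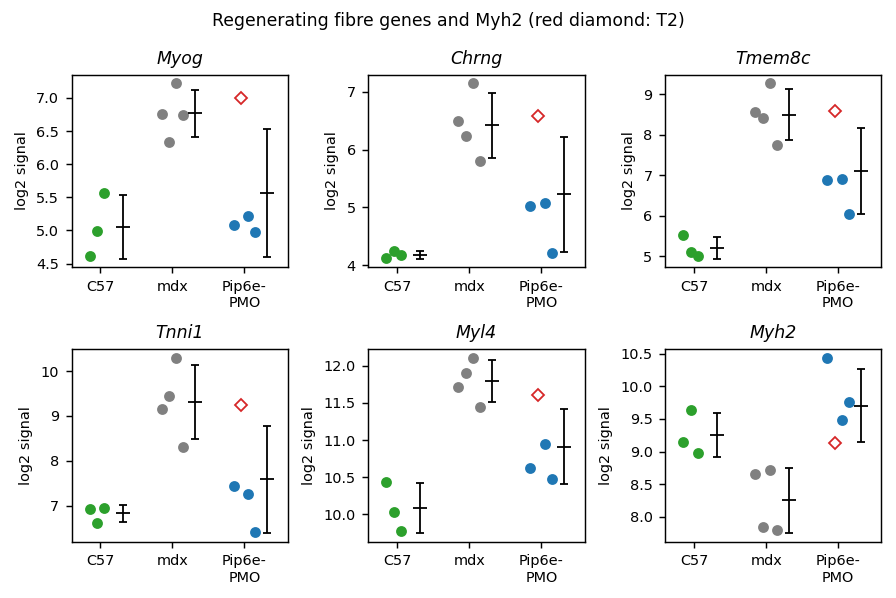
Log2 intensity of Myog, Chrng, Tmem8c, Tnni1, Myl4 and Myh2 in each C57, *mdx* and treated mouse, with bars for the group mean ± SD (n = 3, 4 and 4) and T2 as a red open diamond. T2 lies among the *mdx* mice for Myog, Chrng, Tmem8c and Tnni1 and with the treated mice for Myh2, at 9.13.

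Most of the called genes of the tricarboxylic acid cycle and of fatty acid uptake and oxidation rose. On the deposited scale, 71.3% of all calls with all mice and 60.6% without T2 were higher. Of 27 genes of the tricarboxylic acid cycle and pyruvate dehydrogenase, 5 rose and none fell with all mice, and 11 rose and 1 fell without T2, at a median of 0.23. With centred arrays none of the 5 was called in all mice, and 9 rose and 1 fell without T2. For comparison with this list and the next, 4.55% of all genes rose with all mice and 18.6% without T2. Pdha1, the E1 subunit of pyruvate dehydrogenase, measured 10.59, 10.33, 10.07 and 9.75 in *mdx* and 10.82, 10.72, 10.87 and 10.95 in treated mice. The treated mice were all above, close together, and M4 was the lowest *mdx* mouse, at a difference of 0.66 ± 0.16 (SE, adjusted p = 0.0447). Idh3a rose by 0.61 ± 0.15 (SE, adjusted p = 0.0421) and the succinate dehydrogenase subunit Sdha by 0.47 ± 0.12 (SE, adjusted p = 0.0443). Of 29 genes of fatty acid uptake and oxidation, 3 rose with all mice and 10 without T2, and none fell, while with centred arrays none was called in all mice and 9 rose and 1 fell without T2. Cd36 is among them, 9.08, 9.11, 8.44 and 7.82 in *mdx* and 9.45, 9.39, 9.72 and 9.81 in treated mice, as are lipoprotein lipase (Lpl) by 0.53 ± 0.13 (SE, adjusted p = 0.0458) and Etfdh, which passes electrons from fat oxidation to ubiquinone, by 0.79 ± 0.19 (SE, adjusted p = 0.0429). Without T2 the long-chain acyl-CoA synthetase Acsl1 and the dehydrogenase Acadm rose by 0.75 and 0.68. The ketone and lactate transporter Slc16a1 rose by 0.56 ± 0.13 (SE, adjusted p = 0.0408), and without T2 Acat1 was the other of 9 genes of ketone and acetate use to rise. Ppargc1a and Ppara, regulators of oxidative genes, were at 0.62 ± 0.24 (SE, adjusted p = 0.08) and 0.31 ± 0.13 (SE, adjusted p = 0.0931) without T2 and did not pass.

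The respiratory chain did not rise as a whole. Of 37 nuclear subunits of complex I, the large Ndufs1 rose by 0.80 ± 0.20 (SE, adjusted p = 0.0467) and the small Ndufa7 fell by -0.41 ± 0.10 (SE, adjusted p = 0.0484) with all mice, and without T2 2 rose and 6 fell, or 5 and 2 after repeated quantile normalization. Of 47 subunits of complexes II to V, Sdha alone rose with all mice, and 2 rose and 4 fell without T2, or 5 and 3 after quantile normalization. Mitochondrial ribosomal proteins gave 1 rise and 4 falls of 75 with all mice and 11 rises and 12 falls without T2, or, with centred arrays, no rise and 6 falls with all mice and 9 rises and 20 falls without T2. In glycolysis and glycogen metabolism, 33 genes, the enzymes Eno1 and Pgam1 fell with all mice by -0.54 ± 0.14 (SE, adjusted p = 0.0493) and -0.54 ± 0.14 (SE, adjusted p = 0.0493), both from probe sets annotated as able to bind other genes. Without T2 10 genes rose, among them the glycogen enzymes Ugp2 and Gbe1 and the phosphatase subunit Ppp1r3a, by 0.75, 0.70 and 0.88. In lipid synthesis, 29 genes, 3 rose with all mice, the cholesterol enzymes Hmgcs1 by 0.73 ± 0.11 (SE, adjusted p = 0.0218) and Lss by 0.45 and the elongase Elovl5 by 0.54. Without T2 8 rose and 4 fell, or 6 and 6 with centred arrays, the desaturase Scd1 and fatty acid synthase (Fasn) of fat cells among the falls at -0.98 and -0.56.

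Among stress genes, the metallothioneins and p21 fell. Mt2, which binds zinc and is induced by glucocorticoids and metals, was 12.60, 12.15, 11.97 and 12.82 in *mdx*, 10.98, 12.00, 10.96 and 10.45 in treated and 9.66 to 10.05 in C57 mice. T2 was close to the lowest *mdx* mouse, at a difference of -1.29 ± 0.30 (SE, adjusted p = 0.0396), and Mt1 fell without T2 by -1.37 ± 0.23 (SE, adjusted p = 0.00603). Of 28 glucocorticoid and atrophy genes, Mt2 and Lcn2 fell with all mice, and 4 fell and 1 rose without T2. Without T2 the glucocorticoid target Fkbp5 and the atrophy ligases Trim63 and Fbxo32 were at -0.24 ± 0.13 (SE, adjusted p = 0.189), 0.25 ± 0.12 (SE, adjusted p = 0.13) and 0.41 ± 0.16 (SE, adjusted p = 0.0812). With all mice Fbxo32 was at 0.115 ± 0.267 (SE, adjusted p = 0.804). Cdkn1a, the cell cycle inhibitor p21 that p53 and myogenic differentiation induce, measured 9.71, 9.54, 9.98 and 10.06 in *mdx*, 8.69, 9.46, 8.67 and 8.76 in treated and 7.66 to 8.01 in C57 mice. T2 lay just under the lowest *mdx* mouse, and the difference was -0.93 ± 0.19 (SE, adjusted p = 0.0304). It was the only one of 18 p53 targets called with all mice, and without T2 Plk3 fell and Sesn1 and Trp53inp1 rose. Of 19 cell cycle genes, 1 rose and 1 fell with all mice. The ribonucleotide reductase subunit Rrm1 rose by 0.67 ± 0.16 (SE, adjusted p = 0.0428), and Cdkn1a, which is in this list too, fell. Without T2 2 rose and 4 fell, among the falls Plk1 by -0.91. Of 23 immediate early genes none was called with all mice, and Egr2 and Ier3 fell without T2.

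Chaperone lists moved little with all mice. Of all genes tested, 4.55% rose and 1.83% fell with all mice, and 18.6% rose and 12.1% fell without T2. Of 69 heat shock proteins and chaperones, 1 rose and 1 fell with all mice, Dnajc3 at 0.51 and Dnajc4 at -0.39, and 16 rose and 5 fell without T2, or 10 and 8 with centred arrays. Of 26 genes of the unfolded protein and integrated stress responses, Sdf2l1 of the endoplasmic reticulum fell with all mice by -0.66 ± 0.15 (SE, adjusted p = 0.0364), and 5 rose and 4 fell without T2, or 1 and 4 with centred arrays. Proteasome subunits, 46 genes, had 2 rises and 2 falls with all mice and 12 rises and 8 falls without T2, or 10 and 12 with centred arrays. The 2 falls were the immune subunits Psmb8 and Psme2 named above, and the rises were Psmd1 by 0.53 and Psma3 by 0.45.

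Clock genes were examined because muscle clocks depend on the hour of death. Nr1d2 (REV-ERBβ) measured 7.87, 7.67, 7.38 and 7.15 in *mdx*, 8.76, 8.03, 8.21 and 8.41 in treated and 7.99 to 8.26 in C57 mice and rose by 0.83 ± 0.19 (SE, adjusted p = 0.0364). Per3 was 7.02, 6.72, 6.94 and 7.20 in *mdx*, 7.96, 7.52, 7.79 and 7.29 in treated and 8.41 to 8.70 in C57 mice and rose by 0.67 ± 0.16 (SE, adjusted p = 0.0403). Both *mdx* groups lay below C57 mice for Per3. Those 2 of 13 day-phase genes rose with all mice, Nr1d1 joined them without T2, and none fell. Per1, Per2 and Dbp were at 0.04 ± 0.46 (SE, adjusted p = 0.968), 0.21 ± 0.17 (SE, adjusted p = 0.422) and 0.43 ± 0.18 (SE, adjusted p = 0.138), and Per2 was 5.58 to 6.15 in *mdx*, 5.62 to 6.33 in treated and 7.83 to 8.16 in C57 mice. Of 7 night-phase genes none was called with all mice, and Npas2 was 7.57 to 8.0 in *mdx*, 7.45 to 7.87 in treated and 4.95 to 5.05 in C57 mice. The hours of death are not among the labels, and their part in these differences was not tested.

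Many histone genes and small nucleolar RNAs fell without T2, and fewer with all mice. Over all genes the shares that fell were 12.1% without T2 and 1.83% with all mice. Histone genes, which package DNA and mostly lack introns and poly(A) tails, had 11 falls of 59 with all mice and 45 without T2, and none rose, at a median of -0.43 and -0.53. Hist1h2bm (H2bc14) measured 7.87, 7.60, 7.77 and 7.79 in *mdx*, 6.87, 7.01, 6.76 and 6.47 in treated and 6.95 to 7.20 in C57 mice. The *mdx* mice were the high group and T2 was among the treated mice, at a difference of -0.98 ± 0.12 (SE, adjusted p = 0.0141). Hist1h2bh (H2bc9) fell by -0.71 ± 0.11 (SE, adjusted p = 0.0218). Small nucleolar RNAs, which guide modification of ribosomal RNA and are cut from introns, had 6 falls of 60 with all mice and 34 without T2, and none rose, at a median of -0.47 and -0.58. The falls with all mice were 11 with centred arrays and 3 after quantile normalization. Snora75 measured 6.70, 5.34, 6.29 and 5.95 in *mdx* and 4.70, 5.0, 4.98 and 5.26 in treated mice, and Snora44 10.67, 10.20, 10.60 and 10.35 and 9.56, 10.18, 9.78 and 9.75. Treated mice were below all *mdx* mice for both genes, by -1.08 ± 0.25 (SE, adjusted p = 0.0379) and -0.64 ± 0.15 (SE, adjusted p = 0.0408). Histone genes are near copies of each other, and their probe sets may read several.

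Differences also followed the length of the gene, measured as the span from start to stop in the deposited table. Over 11222 protein-coding genes in 5 equal groups by span, the median difference without T2 was -0.16 in the shortest, of up to 6.05 kb, then -0.08, 0.04 and 0.17, and 0.23 in the longest, of 64.1 kb or more. With all mice these were -0.13, -0.05, 0.04, 0.14 and 0.19. In the shortest group 25.7% of genes were called lower without T2 and 5.08% higher, and in the longest 2.36% and 35.0%. Relative to the *mdx* mean, the shortest and longest groups had medians of -0.24 and 0.28 in T1, -0.02 and 0.08 in T2, -0.10 and 0.16 in T3 and -0.13 and 0.24 in T4. The 4 *mdx* mice lay between -0.02 and 0.01 in the shortest and -0.04 and 0.04 in the longest group, and the C57 mice between -0.04 and 0.06 and between -0.12 and 0.04. For 56 small nucleolar RNAs the medians were -0.82 in T1, -0.08 in T2, -0.52 in T3 and -0.31 in T4, and from -0.21 to 0.20 in *mdx* mice. RNA length, integrity and the labelling of short RNAs were not among the values used here, and the part of the span in the results for any list was not tested.

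**Figure D4:**
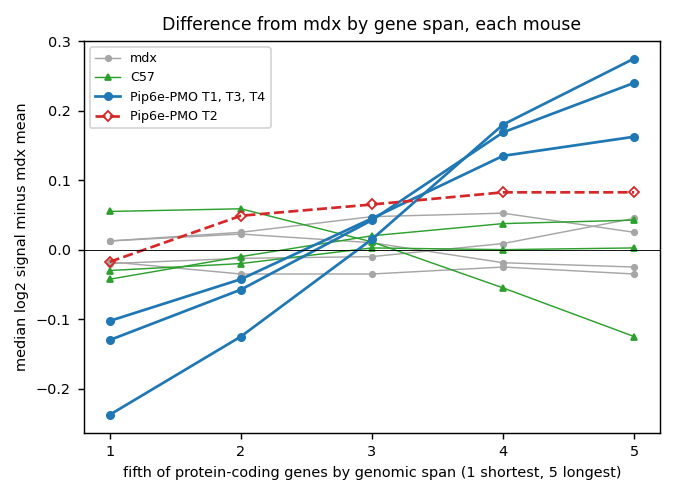
Median log2 deviation from the *mdx* mean in each mouse (vertical axis) for 5 equal groups of protein-coding genes ordered by span in the deposited table (horizontal axis, shortest to longest). The lines of T1, T3 and T4 climb from -0.24, -0.10 and -0.13 to 0.28, 0.16 and 0.24, that of T2 (red, dashed) from -0.02 to 0.08, and the *mdx* mice stay between -0.04 and 0.05.

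Other large lists of the machinery of gene expression were counted in the same way. Among all genes tested, 4.55% rose and 1.83% fell with all mice, and 18.6% rose and 12.1% fell without T2. The shares of Zfp genes and splicing factors that rose were not far from these. Cytosolic ribosomal proteins had no calls of 80 with all mice and 12 falls and 2 rises without T2, Rps29 by -0.50 and Rps21 by -0.49 among the falls, while the falls numbered 25 with arrays centred on their medians and 5 after repeated quantile normalization. Of these 80 genes, 64 have a probe set annotated as able to bind other genes. Translation factors and aminoacyl-tRNA synthetases had 9 rises of 97 with all mice and none fell, or 5 rises and 2 falls with centred arrays, and 35 rose and 3 fell without T2, or 30 and 11 with centred arrays. The largest of these with all mice was the Y-chromosomal initiation factor gene Eif2s3y, 6.20, 6.49, 5.97 and 5.90 in *mdx* and 6.80, 6.75, 7.11 and 7.14 in treated mice, by 0.81 ± 0.15 (SE, adjusted p = 0.0261). The synthetase genes Eprs and Dars rose by 0.74 and 0.65 with all mice. Splicing factors had 6 rises of 90 and none fell with all mice, and 23 rose and 2 fell without T2, among the rises Mbnl1 and Mbnl2, the muscleblind proteins that set adult splicing in muscle, at 0.75 and 0.65. On either other scale 2 splicing factors rose with all mice, and without T2 16 rose with centred arrays and 18 after quantile normalization. Zinc finger (Zfp) genes had 10 rises and 1 fall of 179 with all mice and 37 rises and 4 falls without T2. On either other scale the counts with all mice were 4 rises and 1 fall, and without T2 the rises and falls were 24 and 10 with centred arrays and 25 and 8 after quantile normalization. Autophagy genes had 3 rises of 34, the kinase Ulk2 by 0.57 ± 0.14 (SE, adjusted p = 0.0458), the receptor Nbr1 by 0.57 ± 0.15 (SE, adjusted p = 0.0493) and Wipi1 by 0.38, and without T2 11 rose and 4 fell. With centred arrays none was called in all mice.

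Tubulins split from the motors that run on them. Tubb6, a tubulin of regenerating and dystrophic fibres, measured 8.86, 8.91, 9.08 and 9.55 in *mdx*, 8.03, 8.34, 8.02 and 7.72 in treated and 7.21 to 7.37 in C57 mice. All treated mice, T2 highest, were below all *mdx* mice, at a difference of -1.07 ± 0.17 (SE, adjusted p = 0.0237). Tubb2a, Tuba1b and Tuba1c fell as well with all mice, by -0.76, -0.43 and -0.42, while the dynein chain Dync1i2 and Tubgcp5 of the γ-tubulin ring rose by 0.56 and 0.76. Without T2 8 of 47 genes fell, all of them tubulins, and 11 rose, none of them a tubulin chain.

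In the remaining lists calls were few. Of 27 genes of insulin and IGF signalling, Igf1 rose with all mice by 0.44 ± 0.11 (SE, adjusted p = 0.0453), and without T2 7 rose and 3 fell, or 4 and 4 with centred arrays, the fetal growth factor Igf2 by -0.95 among the falls. Of 30 genes of the Wnt pathway, the receptor Fzd6 rose with all mice, and 3 rose and 1 fell without T2, or 3 and 4 on either other scale. Of 59 ion channels 1 rose and 1 fell, Clcn3 by 0.62 and Kcng4 by -0.64, and without T2 8 rose and 2 fell, or 5 and 6 with centred arrays. Of 195 solute carriers 13 rose and 2 fell with all mice, or 8 and 2 with centred arrays, and 34 rose and 28 fell without T2, or 25 and 41 with centred arrays. The largest with all mice was the mitochondrial folate carrier Slc25a32, which rose by 0.80 ± 0.14 (SE, adjusted p = 0.0261). These shares are to be read against 4.55% higher and 1.83% lower with all mice and 18.6% and 12.1% without T2 over all genes.

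**Figure D5:**
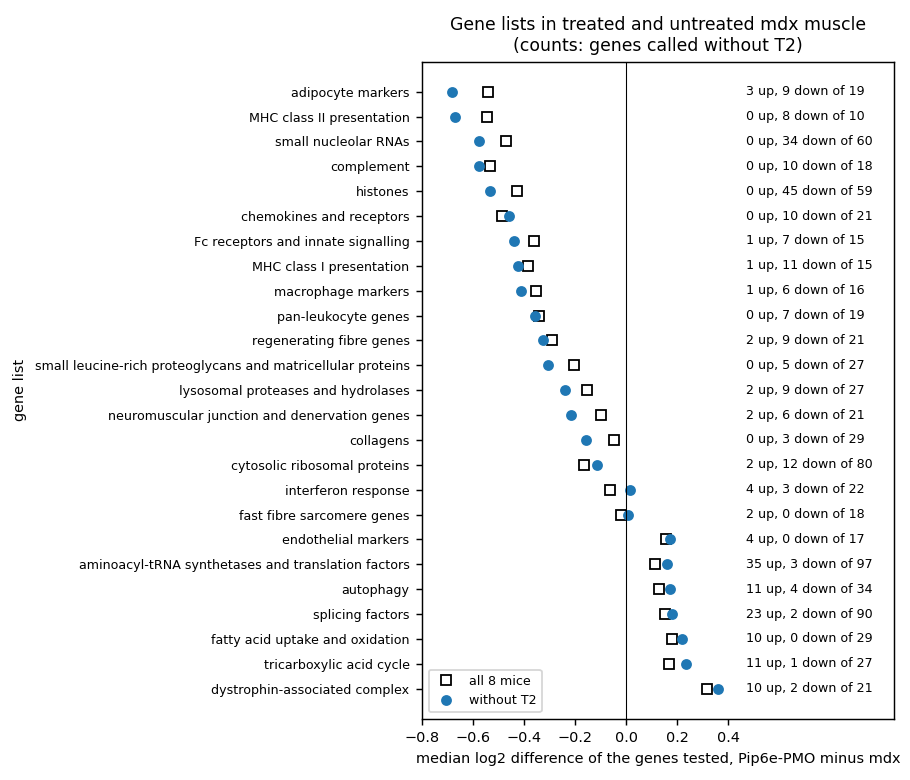
Median treated minus *mdx* difference (log2, horizontal axis) over the tested members of 25 gene lists, with all 8 mice and without T2, and beside each list its members called higher and lower without T2. MHC class II genes, adipocyte markers, complement, small nucleolar RNAs and histones have the lowest medians, at -0.67, -0.68, -0.58, -0.58 and -0.53 without T2, and the dystrophin-associated complex has the highest at 0.36.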

How the data were processed

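The deposited intensities are the authors' output of Expression Console (Affymetrix), whose RMA-Sketch workflow corrected the background, set the arrays to a common distribution by sketch quantiles and summarised probes by median polish. They are on the linear scale for 28350 probe sets, with replicates not pooled. The genome build behind the deposited positions is not given in the sources used here, and of the genes tested 11575 had an Entrez identifier in the RefSeq table used for current names. The stated removal of probe sets below an intensity of 30 had not been applied to the table, and was applied here to both *mdx* groups. It left 14283 probe sets, and those among them with a gene symbol gave 11695 genes.

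In R 4.3.3, limma 3.58.1 (lmFit and eBayes, two-sided) fitted the log2 intensities of the 8 mice, and again those of the 7 without T2, with Benjamini-Hochberg adjustment over all 11695 genes. A gene was called at an adjusted p under 0.05. The C57 mice were in no fit. The fit was tested on simulated data. Replicates are separate mice. No depth applies to arrays, and 4 mice per group limit the precision. Tables and figures were made in Python 3.11.15 with pandas 2.3.3, NumPy 2.4.6 and matplotlib 3.10.9.

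Genes were named by this rule: the 15 largest rises and falls with no overlap between the groups, the 10 largest of each without T2, Dmd, and for each of 64 gene lists up to 4 called members and those needed to say what did not pass. Some list members are counted but not reported by name here. Genes and lists were chosen with earlier results of these data known, so lists are described by counts and medians, with no test. Alternatives covered the test, the minimum, the normalization, the choice of probe set, the samples in the fit, the replicate block and each mouse left out. Leaving out the 674 probe sets that share all values with another, and the replicate block without T2, were added after seeing the data. The methods' unpaired t-test was one of the alternatives.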

Additional observations from a re-analysis of the deposited data

Results flagged for a closer look

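In 34 of 494 groups of 4 mice, for the 247 tested genes named in the text, 1 mouse lay so far from the other 3 that the gap to the nearest passed Dixon's 95% critical value as a share of the whole range. Chance alone flags about 1 in 20 groups, and 13 of the 34 are T2.

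T2 stood above T1, T3 and T4, with its log2 intensity set against their range, for C1qc (9.52 against 8.35 to 8.50), Cdkn1a (9.46 against 8.67 to 8.76) and Ctss (7.11 against 6.98 to 6.99). It was above for Id1 (8.36 against 7.04 to 7.23), Mt1 (10.67 against 9.42 to 9.56) and Myog (7.0 against 4.97 to 5.22). It was above for Nnat (6.51 against 4.32 to 4.66), Tuba1c (11.67 against 11.32 to 11.35) and Tyrobp (8.68 against 7.52 to 7.63). It stood below them for Dync1i2 (6.76 against 7.03 to 7.07), Itga1 (6.74 against 7.25 to 7.35) and Jph1 (10.55 against at least 10.93). It was below for Sgcb (8.33 against 8.74 to 8.82).

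M1 stood below its group for Ankrd2 (9.29 against 9.57 to 9.61), Clu (8.61 against 8.89 to 8.92) and Col6a2 (9.04 against 9.31 to 9.35). M1 stood below its group for Fkbp5 (6.61 against 7.03 to 7.07), Kit (5.16 against 5.56 to 5.63) and Lrp4 (6.96 against 7.22 to 7.24). M2 stood above its group for Mrc1 (6.55 against 5.99 to 6.05) and Rps29 (10.61 against 10.51 to 10.52). M3 stood above its group for Ncam1 (8.61 against 7.90 to 8.01). M3 stood below its group for Eno1 (11.02 against 11.23 to 11.25) and Trim63 (8.61 against 8.88 to 8.90). M4 stood below its group for Adam10 (5.70 against 5.98 to 6.01), H2-Q7 (10.07 against 10.15 to 10.16) and Ppargc1a (7.01 against 7.66 to 7.77). T1 stood above its group for Socs3 (5.96 against 5.82 to 5.83) and Wipi1 (9.39 against 9.16 to 9.18). T1 stood below its group for Ctsz (9.18 against 9.38 to 9.41). T3 stood above its group for Ckm (13.19 against 13.17 to 13.17). T4 stood above its group for Npas2 (7.87 against 7.45 to 7.52). T4 stood below its group for Ccl17 (4.95 against 5.25 to 5.29) and Dbp (8.12 against 8.86 to 8.94).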

How the results depend on the processing

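With all 8 mice, 746 genes were called by limma, and the number was 1370 with the C57 arrays in the fit, 4008 with array weights, 335 with no minimum intensity, 52 by a t-test on linear intensities, 40 by the methods' t-test on log2 values and 6 by the unequal-variance test, each after Benjamini-Hochberg adjustment. Leaving out single mice gave 7 to 3580 calls, the highest without T2. At the study's threshold, against 541 genes, array weights gave 915, a minimum of 100 gave 346, the linear test 248, the methods' t-test 264, the unequal-variance test 200 and single mice left out 333 (M4) to 1108 (T2). Without T2, against 3580 calls, the linear test gave 1661, the methods' t-test 1501, the unequal-variance test 121 and a further mouse left out 1582 (T4) to 3285, with 2060 for T1. Against 1108 genes at the study's threshold, these gave 721, 686, 562 and 858 to 1317. No named gene that was called changed direction in the alternatives run for single genes. Of the named genes not called, 9 with all mice (Ciita, Ckm, Col1a1, Fbxo32, Myh4, Per1, Postn, Ptprc and Trim63) and 6 without T2 did so under some alternative. The 532 higher and 214 lower calls with all mice became 307 and 389 with arrays centred on their medians, 1 and 6 without M3, 2 and 6 without M4 or without T3, 1 and 7 without T4, and 0 and 4 with the block described next. The replicate numbers do not pair the mice. Same-numbered mice deviated from their group means with correlations of 0.18, -0.28, -0.23 and -0.31, and with the replicate number as a block 4 genes were called with all mice and 521 passed the study's threshold, against 2476 and 1349 without T2. The cause of these differences was not tested. Most calls with all mice lie close to the threshold, and most are lost when M2 (85 calls), M3, M4, T1, T3 or T4 is left out.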

Other observations

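All 8 mice were males, and the 5 tested genes of the Y chromosome, looked at after Ddx3y and Eif2s3y had been seen among the rises, were not equal in their change. Ddx3y measured 6.11, 6.14, 5.84 and 5.49 in M1 to M4 and 6.60, 6.64, 7.02 and 7.29 in T1 to T4, without overlap. Eif2s3y rose with all mice as well, by 0.81 ± 0.15 (SE, adjusted p = 0.0261). The histone demethylase Kdm5d was 5.39, 5.45, 5.18 and 4.87 in *mdx* and 6.35, 5.16, 5.93 and 6.22 in treated mice. T2 lay with the *mdx* mice, and Kdm5d rose without it by 0.94 ± 0.16 (SE, adjusted p = 0.00572). Uty, at 0.36 ± 0.13 (SE, adjusted p = 0.106), and Sry, at 0.09 ± 0.11 (SE, adjusted p = 0.588), were not called with or without T2.

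The transferrin receptor Tfrc, which takes up iron, was in no list. It measured 8.41, 7.94, 7.70 and 6.95 in *mdx*, 8.71, 8.43, 8.70 and 8.90 in treated and 6.77 to 7.28 in C57 mice. The treated mice were all above the *mdx* mice and M4 was the lowest *mdx* mouse, at a difference of 0.94 ± 0.26 (SE, adjusted p = 0.0527) with all mice and 1.02 ± 0.28 (SE, adjusted p = 0.0246) without T2.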
